A study of Mus musculus with 17 samples.

Results

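Transcript levels of 10 genes of the Notch pathway were followed in embryonic mouse kidneys at E12.5 by bulk RNA-seq. They were the receptors Notch1 and Notch2, the ligands Jag1 and Dll1, the glycosyltransferase Lfng, and the target genes Hes1, Hes5, Hey1, Hey2 and Heyl. The genes were found by symbol through their Ensembl IDs, and made up 10 of the 24432 gene IDs of the table. Kidneys labelled Ctnnb1-delta3 c/+;Foxd1 (5 libraries, called Foxd1-Cre here) carried an allele of beta-catenin that Cre activates, with Cre expressed in the stromal lineage, and were set against wild types 1 to 6. Kidneys labelled Ctnnb1-delta3 c/+;Six2 (3 libraries, called Six2-Cre) carried the same allele with Cre in nephron progenitors, and were set against wild types 7 to 9. All 17 libraries came from dissected kidneys of mixed strain. Each value therefore averages over every cell type of the kidney, whether or not Cre acted in it. Litter, the number of kidneys per library and whether the wild types carried Cre are not given in the sources used here.

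Notch receptors are cut when a ligand on a neighbouring cell binds them, and the freed intracellular part joins the DNA-binding protein RBPJ and Mastermind coactivators to switch on targets such as the Hes and Hey genes, which encode basic helix-loop-helix repressors. Fringe enzymes such as Lfng add sugars to the receptor and change which ligands it answers to. In the mouse kidney, Notch2 is the main receptor that nephron progenitors use to leave the progenitor state and form proximal nephron segments, and Notch signalling also acts in blood vessels and their mural cells.

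Expression was given in FPKM, fragments per transcript length and library size, which corrects for transcript length. Changes were tested with limma on log2(FPKM + 1), mutant minus wild type, and a gene was said to rise or fall where p adjusted over all genes tested was under 0.05. In Foxd1-Cre kidneys 13.3% of 13996 genes passed this test (8.45% higher, 4.82% lower) and in Six2-Cre kidneys 13.8% of 13828 genes (7.93% higher, 5.84% lower). Among the Foxd1-Cre calls 63.7% were higher, against 75.1% when libraries were scaled to the same total FPKM and 52.3% when they were scaled to the same upper quartile. The 11 libraries of the Foxd1-Cre comparison were read to about 28800000 to 37400000 reads and the 6 of the Six2-Cre comparison to about 5240000 to 5790000, as inferred from the step between FPKM values. Levels set across these library sets therefore differ in more than genotype. The Wnt target Axin2 stood at 60.1 to 77.0 FPKM in Foxd1-Cre kidneys against 9.57 to 11.01 in wild types 1 to 6, and at 34.1 to 41.2 FPKM in Six2-Cre kidneys against 12.4 to 13.5 in wild types 7 to 9. Notum, another Wnt target, also lay above all wild types in both mutants, and 6 of 6 Wnt targets rose in each.

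In Foxd1-Cre kidneys the ligand Dll1 and the target Hes1 fell, the target Hey2 rose, and the other 7 of the 10 genes did not pass the test. In Six2-Cre kidneys Hey2 and the ligand Jag1 rose and none of the 10 fell. The counts were 3 of 10 and 2 of 10, against 13.3% and 13.8% of all genes tested. The median log2 change over the 10 genes was -0.24 in Foxd1-Cre kidneys, where all genes had a median of -0.01, and 0.02 in Six2-Cre kidneys, where all genes had a median of -0.01. All 10 genes passed the filter on low values, Hes5 through wild types alone. That favours lower Hes5 values in mutants, and both medians include Hes5. The medians are therefore descriptions and are not read against those of all genes. In bulk RNA, fewer cells of a type and less RNA per cell cannot be told apart, so each change below may be either.

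**Figure D1:**
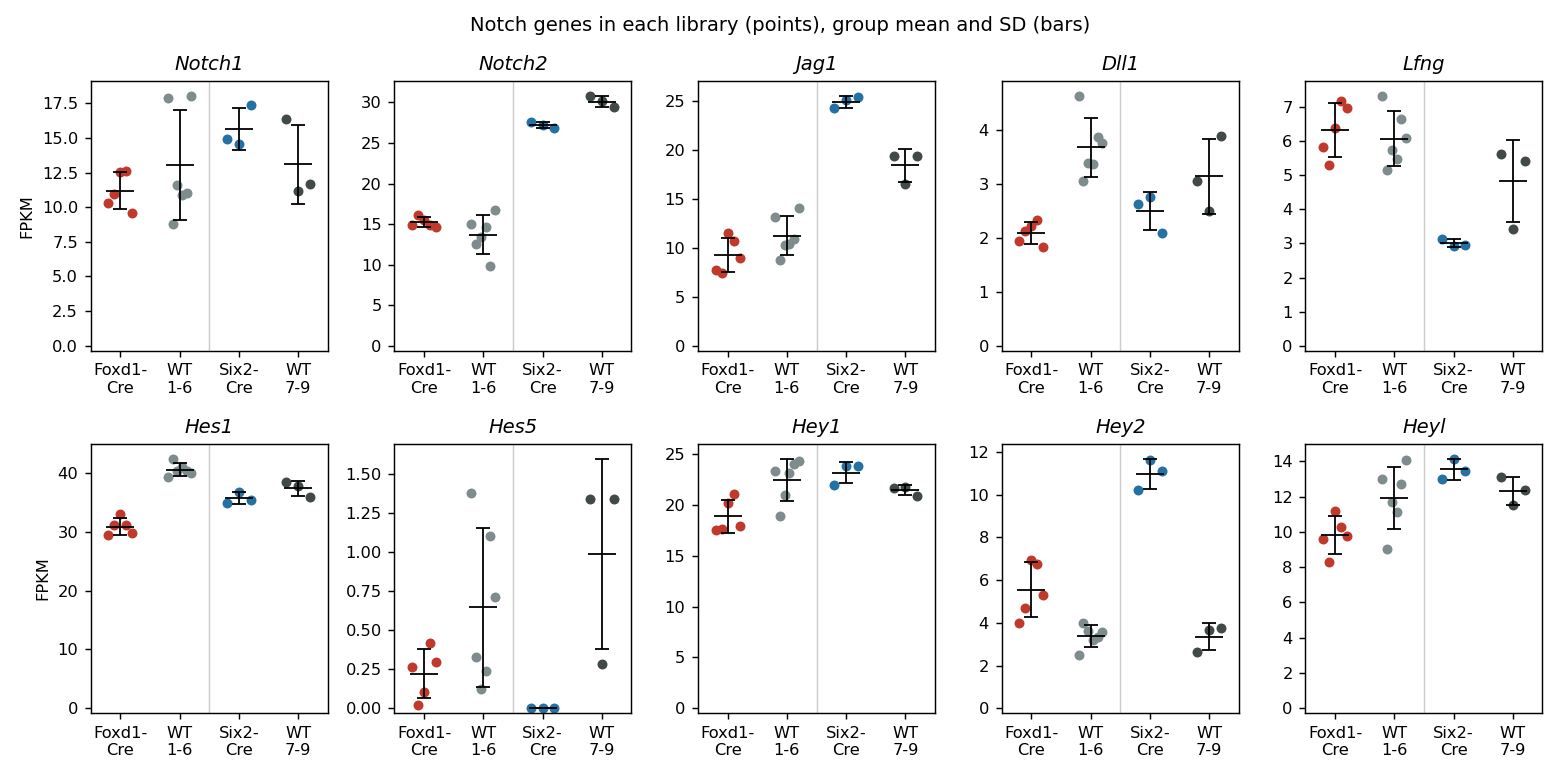
FPKM of each of the 10 genes by library, 1 panel per gene, with mutant libraries left of their wild types; points are libraries and bars are means with SD (n = 5, 6, 3 and 3). Hey2 lies above every wild type in both mutants, and Dll1 and Hes1 lie below every wild type in Foxd1-Cre kidneys.

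RefSeq promoter windows of GRCm38.p6, from 250 bases before to 50 bases after an annotated start, were at hand for 7 of the 10 genes (Notch1, Notch2, Jag1, Dll1, Lfng, Hes5 and Hey2), in 8 windows. The windows of Hes5, Hey2 and Lfng are shown because they hold the core letters bound by RBPJ (TGGGAA, or TTCCCA on the other strand), and that of Jag1 because it holds the core letters bound by TCF/LEF factors, the DNA-binding partners of beta-catenin (CTTTGA, or TCAAAG on the other strand). Capitals mark those letters, and each sequence runs 5′ to 3′ on the strand of its gene.
Hes5, chr4:154960673-154960972, plus strand: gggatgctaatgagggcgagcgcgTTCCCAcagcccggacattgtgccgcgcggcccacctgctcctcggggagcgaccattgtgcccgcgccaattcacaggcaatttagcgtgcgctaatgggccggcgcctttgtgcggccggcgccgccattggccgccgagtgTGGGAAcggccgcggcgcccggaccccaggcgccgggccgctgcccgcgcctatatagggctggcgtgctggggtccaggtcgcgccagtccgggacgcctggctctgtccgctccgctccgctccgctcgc
Hey2, chr10:30842734-30843033, minus strand: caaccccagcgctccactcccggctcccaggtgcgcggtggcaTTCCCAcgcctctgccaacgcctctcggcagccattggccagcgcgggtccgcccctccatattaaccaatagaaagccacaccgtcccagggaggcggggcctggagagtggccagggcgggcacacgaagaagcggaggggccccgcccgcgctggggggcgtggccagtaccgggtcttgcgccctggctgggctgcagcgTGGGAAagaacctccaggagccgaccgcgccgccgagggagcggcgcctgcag
Lfng, chr5:140607091-140607390, plus strand: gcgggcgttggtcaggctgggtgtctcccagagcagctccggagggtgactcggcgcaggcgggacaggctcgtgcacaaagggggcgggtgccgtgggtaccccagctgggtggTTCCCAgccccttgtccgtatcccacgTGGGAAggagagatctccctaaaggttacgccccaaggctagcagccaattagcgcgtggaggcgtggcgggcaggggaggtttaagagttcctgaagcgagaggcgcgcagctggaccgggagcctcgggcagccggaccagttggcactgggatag
Jag1, chr2:137116471-137116770, minus strand: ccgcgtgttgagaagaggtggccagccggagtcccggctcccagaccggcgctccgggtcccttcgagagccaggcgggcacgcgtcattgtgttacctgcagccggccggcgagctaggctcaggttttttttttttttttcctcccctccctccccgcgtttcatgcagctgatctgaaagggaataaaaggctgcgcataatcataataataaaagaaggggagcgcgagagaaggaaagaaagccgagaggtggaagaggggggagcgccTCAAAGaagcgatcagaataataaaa
Each of the windows of Hes5, Hey2 and Lfng held the RBPJ core at a pair of places, in opposite orientation. The first bases of these matches lay at -82 and -226 from the start in Hes5, at -3 and -207 in Hey2, and at -108 and -135 in Lfng. Of all 32851 RefSeq windows, 25.6% held the RBPJ core at least once and 3.79% held it 2 or more times. The longer form GTGGGAA, which contains the core, was found in the same 3 windows and in 6.38% of all windows. The TCF/LEF core was found in 1 of the 8 windows, that of Jag1, at 25 bases after the start, and in 16% of all windows. Letters bound by Hes and Hey proteins were searched too, on both strands. CACGTG was found in 1 of 8 windows and 7.15% of all, CACGCG in 4 of 8 and 9.27%, and CACNAG in 4 of 8 and 42.5%. The CACGTG of the Lfng window, at -112, overlaps its RBPJ core. These matches describe letters and not binding.

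The receptors passed the test in neither mutant. Notch1 (ENSMUSG00000026923, chr2:26457903-26516663, minus strand of GRCm38) had 10.3, 10.99, 12.54, 12.6 and 9.56 FPKM in Foxd1-Cre kidneys, against a lowest value of 8.78, a median of 11.3 and a highest of 18.0 in wild types 1 to 6. Wild types 1 and 6 stood apart at 17.9 and 18.0 FPKM, and all 5 Foxd1-Cre libraries lay inside the range of the wild types. The log2 change was -0.17 ± 0.17 (SE; adjusted p = 0.606). In Six2-Cre kidneys Notch1 had 14.9, 14.6 and 17.4 FPKM, against 16.4, 11.2 and 11.7 FPKM in wild types 7 to 9, a log2 change of 0.26 ± 0.15 (SE; adjusted p = 0.318). These groups overlapped through wild type 7.

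Notch2 (ENSMUSG00000027878, chr3:98013527-98150361, plus strand) had 14.9, 16.2, 15.5, 14.9 and 14.7 FPKM in Foxd1-Cre kidneys, against a lowest value of 9.88, a median of 14.0 and a highest of 16.8 in wild types 1 to 6. The ranges overlapped, and the log2 change was 0.16 ± 0.10 (SE; adjusted p = 0.394). The 3 Six2-Cre libraries had 27.6, 27.2 and 26.8 FPKM, against 30.8, 30.2 and 29.4 FPKM in wild types 7 to 9. Every Six2-Cre library lay below every wild type, yet the log2 change of -0.14 ± 0.04 (SE) did not pass (adjusted p = 0.0804). Annotated genes overlap both receptors, on both strands for Notch1 and on the same strand for Notch2, and whether counting used strand is not given in the sources used here.

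The ligands each passed in one mutant. Dll1, a transmembrane Delta-type ligand (ENSMUSG00000014773, chr17:15367354-15376872, minus strand), had 1.94, 2.13, 2.23, 2.34 and 1.84 FPKM in Foxd1-Cre kidneys, against a lowest value of 3.06, a median of 3.58 and a highest of 4.64 in wild types 1 to 6. No Foxd1-Cre library reached the lowest wild type. Mean FPKM was 2.09 ± 0.204 in Foxd1-Cre kidneys and 3.68 ± 0.552 in wild types (SD, n = 5 and 6), a ratio of 0.569, and the log2 change was -0.59 ± 0.08 (SE; adjusted p = 0.000411). In Six2-Cre kidneys Dll1 had 2.64, 2.77 and 2.10 FPKM, against 3.06, 2.50 and 3.89 FPKM in wild types 7 to 9. Those groups overlapped, with a log2 change of -0.24 ± 0.16 (SE; adjusted p = 0.368). At this depth the Dll1 values of the Six2-Cre comparison rest on about 43.6 to 74.8 reads each, against 192.5 to 537.7 in the Foxd1-Cre comparison. A non-coding gene, A930024N18Rik, overlaps Dll1 on the other strand.

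Jag1, the Serrate-type ligand (ENSMUSG00000027276, chr2:137081456-137116644, minus strand), had 24.2, 25.1 and 25.3 FPKM in Six2-Cre kidneys, against 19.3, 16.5 and 19.4 FPKM in wild types 7 to 9. All 3 mutant libraries lay above all 3 wild types. The means were 24.9 ± 0.588 FPKM in Six2-Cre kidneys and 18.4 ± 1.67 FPKM in wild types (SD, n = 3 each), a ratio of 1.35, and the log2 change was 0.42 ± 0.07 (SE; adjusted p = 0.0164). The call ended without Six2-Cre replicate 2 (adjusted p = 0.0593) or replicate 3 (adjusted p = 0.0641), where the change was 0.41 in each case. In Foxd1-Cre kidneys Jag1 had 7.76, 7.45, 11.4, 10.6 and 8.92 FPKM, against a lowest value of 8.73, a median of 10.6 and a highest of 14.1 in wild types 1 to 6. Foxd1-Cre replicates 1 and 2 lay below all wild types and the others among them, and the log2 change of -0.26 ± 0.13 (SE) did not pass (adjusted p = 0.254).

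Lfng (ENSMUSG00000029570, chr5:140607320-140615545, plus strand) passed in neither mutant. It had 3.14, 2.94 and 2.95 FPKM in Six2-Cre kidneys, against 5.63, 3.44 and 5.43 FPKM in wild types 7 to 9. The mutant libraries all lay below the wild types, of which wild type 8 was the lowest. These Lfng values rest on about 37.9 to 72.8 reads each. The log2 change was -0.52 ± 0.17 (SE; adjusted p = 0.0976), and without wild type 8 it was -0.70 and passed (adjusted p = 0.0188). In Foxd1-Cre kidneys Lfng had 5.82, 5.29, 6.39, 7.19 and 6.97 FPKM, against a lowest value of 5.15, a median of 5.91 and a highest of 7.33 in wild types 1 to 6. Those ranges overlapped almost fully, with a log2 change of 0.05 ± 0.09 (SE; adjusted p = 0.772).

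Among the targets, Hes1 (ENSMUSG00000022528, chr16:30064384-30067796, plus strand), a widely expressed Notch effector, was the most abundant of the 10 genes in every group. It had 29.4, 31.1, 33.0, 31.0 and 29.8 FPKM in Foxd1-Cre kidneys, against a lowest value of 39.2, a median of 40.2 and a highest of 42.4 in wild types 1 to 6. The groups were far apart relative to their spread. The means were 30.9 ± 1.44 FPKM in Foxd1-Cre kidneys and 40.5 ± 1.07 FPKM in wild types (SD, n = 5 and 6), a ratio of 0.761, with a log2 change of -0.38 ± 0.03 (SE; adjusted p = 1.05e-05). In Six2-Cre kidneys Hes1 had 34.9, 36.8 and 35.3 FPKM, against 38.4, 37.8 and 35.9 FPKM in wild types 7 to 9. The ranges overlapped, and the log2 change was -0.07 ± 0.05 (SE; adjusted p = 0.405), with a 95% confidence interval from -0.18 to 0.05.

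Hes5 (ENSMUSG00000048001, chr4:154960923-154962371, plus strand), an effector best known from neural progenitors, was the least abundant of the 10 genes in every group. It was listed at 0 FPKM in all 3 Six2-Cre libraries, against 1.34, 0.283 and 1.34 FPKM in wild types 7 to 9. In those wild types the values correspond to about 9.6, 2.0 and 9.2 reads. The log2 change of -0.94 ± 0.26 (SE) did not pass (adjusted p = 0.0652). Since Hes5 passed the filter on low values only through wild types, its change is given as a description. In Foxd1-Cre kidneys Hes5 had 0.264, 0.0230, 0.107, 0.419 and 0.295 FPKM, against a lowest value of 0.124, a median of 0.521 and a highest of 1.38 in wild types 1 to 6. These ranges overlapped, and the log2 change of -0.39 ± 0.19 (SE) did not pass (adjusted p = 0.249). A predicted gene overlaps Hes5 on the other strand.

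Hey2 (ENSMUSG00000019789, chr10:30832359-30842801, minus strand), known for its role in heart and artery development, was the only one of the 10 genes called in both mutants. It had 10.2, 11.6 and 11.1 FPKM in Six2-Cre kidneys, against 2.63, 3.66 and 3.78 FPKM in wild types 7 to 9. The lowest mutant library was far above the highest wild type. At this depth the Hey2 values of the Six2-Cre comparison rest on about 37.6 to 169.6 reads each, the fewest in wild type 7. Mean FPKM was 10.97 ± 0.710 in Six2-Cre kidneys and 3.36 ± 0.635 in wild types (SD, n = 3 each), a ratio of 3.27, and the log2 change was 1.47 ± 0.13 (SE; adjusted p = 0.00177). In Foxd1-Cre kidneys Hey2 had 4.02, 4.70, 6.95, 6.77 and 5.31 FPKM, against a lowest value of 2.51, a median of 3.46 and a highest of 4.01 in wild types 1 to 6. The groups were parted only narrowly, between Foxd1-Cre replicate 1 and wild type 2. The means were 5.55 ± 1.28 FPKM in Foxd1-Cre kidneys and 3.38 ± 0.508 FPKM in wild types (SD, n = 5 and 6), a ratio of 1.64, with a log2 change of 0.57 ± 0.13 (SE; adjusted p = 0.0121). Both calls held with each library left out in turn.

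Hey1 (ENSMUSG00000040289, chr3:8663359-8667256, minus strand), which acts beside Hey2 in vessels, had 17.5, 17.7, 20.2, 21.0 and 17.9 FPKM in Foxd1-Cre kidneys, against a lowest value of 18.9, a median of 23.2 and a highest of 24.3 in wild types 1 to 6. Foxd1-Cre replicates 3 and 4 reached into the wild-type range and the other 3 lay below it. The log2 change of -0.24 ± 0.07 (SE) did not pass (adjusted p = 0.0502), but did so when Foxd1-Cre replicate 4 (-0.28, adjusted p = 0.0329) or wild type 2 (-0.28, adjusted p = 0.00991) was left out. In Six2-Cre kidneys Hey1 had 22.0, 23.8 and 23.8 FPKM, against 21.6, 21.8 and 20.8 FPKM in wild types 7 to 9. The 3 mutant libraries lay above the wild types, with a log2 change of 0.11 ± 0.05 (SE; adjusted p = 0.232).

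Heyl (ENSMUSG00000032744, chr4:123233556-123249875, plus strand), known from vascular smooth muscle and pericytes, passed in neither mutant. It had 9.57, 8.27, 11.2, 10.3 and 9.79 FPKM in Foxd1-Cre kidneys, against a lowest value of 9.03, a median of 12.2 and a highest of 14.0 in wild types 1 to 6. Wild type 2, the lowest, lay below 4 of the 5 Foxd1-Cre libraries. The log2 change was -0.25 ± 0.10 (SE; adjusted p = 0.138), and without wild type 2 it was -0.32 and passed (adjusted p = 0.021). Heyl had 13.0, 14.1 and 13.5 FPKM in Six2-Cre kidneys, against 13.1, 11.5 and 12.4 FPKM in wild types 7 to 9, a log2 change of 0.12 ± 0.07 (SE; adjusted p = 0.287).

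Counted by libraries alone, 3 of the 10 genes had no overlap between Foxd1-Cre kidneys and wild types (Hey2 above, Dll1 and Hes1 below), where 10.7% of all genes tested had none (6.89% above, 3.8% below). In the Six2-Cre comparison 6 of the 10 had no overlap (Jag1, Hey1 and Hey2 above; Notch2, Lfng and Hes5 below), where 35.7% of all genes had none (18% above, 17.7% below). Hes5 passed the filter on low values through wild types alone, which favours lower values in mutants. Its separation is therefore a description and is not read against that share. With 3 libraries against 3, separation was frequent among all genes.

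**Figure D2:**
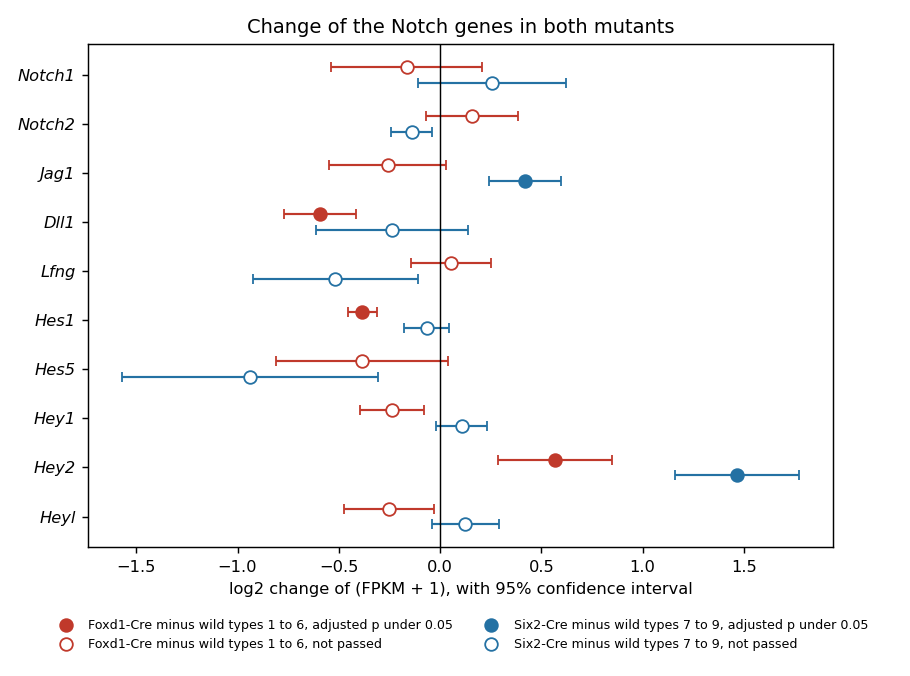
Log2 change of FPKM + 1, mutant minus wild type, for each of the 10 genes in each mutant, with 95% confidence intervals. Hey2 is above 0 in both mutants (0.57 in Foxd1-Cre and 1.47 in Six2-Cre kidneys), Dll1 and Hes1 are below 0 in Foxd1-Cre kidneys, and Jag1 is above 0 in Six2-Cre kidneys.

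The effects of Foxd1-Cre and Six2-Cre were then compared directly, each against its own wild types, as the Foxd1-Cre change minus the Six2-Cre change. Over all genes 11% of 13810 differed at an adjusted p under 0.05, and 4 of the 10 did so, all with a lower change in Foxd1-Cre kidneys. Of all genes 5.76% had a higher and 5.24% a lower change there. Jag1 differed by -0.68 ± 0.15 (SE; adjusted p = 0.00664), with changes of -0.26 in Foxd1-Cre and 0.42 in Six2-Cre kidneys. Hes1 differed by -0.32 ± 0.06 (SE; adjusted p = 0.00274), Hey1 by -0.34 ± 0.09 (SE; adjusted p = 0.0167) and Hey2 by -0.90 ± 0.18 (SE; adjusted p = 0.00331). Hey2 thus rose in both mutants and more in Six2-Cre kidneys. Dll1, called in Foxd1-Cre kidneys alone, did not pass this test (-0.36 ± 0.18, SE; adjusted p = 0.254; 95% confidence interval from -0.75 to 0.03). Heyl (-0.38 ± 0.12, SE; adjusted p = 0.0563), Lfng (0.57 ± 0.19, SE; adjusted p = 0.0908), Notch2 (0.30 ± 0.11, SE; adjusted p = 0.109), Notch1 (-0.42 ± 0.23, SE; adjusted p = 0.282) and Hes5 (0.55 ± 0.33, SE; adjusted p = 0.338) did not pass either. The library sets differ along with the mutants. Beyond each set's own wild types, genotype therefore cannot be told apart from depth or any other set difference here.

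A list of 62 other genes of the pathway was read from the same fits, of which 53 were tested and 9 were too low (Dll3, Dlk2, Dner, Aph1c, Hes2, Hes3, Hes7, Bhlhe41 and Helt). In Foxd1-Cre kidneys 8 of the 53 passed, where 13.3% of all genes tested did. Of these 5 rose and 3 fell, 45 did not pass, and the median log2 change of the 53 was 0.06. The corepressor gene Tle1, a Groucho homologue that Hes proteins recruit, averaged 26.7 ± 1.80 FPKM in Foxd1-Cre kidneys and 19.1 ± 1.1 FPKM in wild types, a log2 change of 0.46 ± 0.05 (SE; adjusted p = 6.65e-05). Its relative Tle3 averaged 42.8 ± 1.80 FPKM in Foxd1-Cre kidneys and 35.3 ± 3.41 FPKM in wild types (0.28 ± 0.06; adjusted p = 0.0118). Dll4, the Delta-type ligand of endothelial cells, rose to 3.95 ± 0.295 FPKM, against 3.13 ± 0.240 FPKM in wild types (0.26 ± 0.06; adjusted p = 0.00795). These 3 calls held whichever library was left out, as did that of the Notch inhibitor gene Numbl (0.22 ± 0.04; adjusted p = 0.00423). With replicate number as a block in the limma fit, the Dll4 call ended (0.25, adjusted p = 0.0725). Rbpj itself, the DNA-binding partner of the receptors, averaged 34.2 ± 0.903 FPKM in Foxd1-Cre kidneys and 31.0 ± 1.46 FPKM in wild types (0.14 ± 0.04; adjusted p = 0.0246). The genes that fell included Hes6, whose product counters Hes1 (-0.17 ± 0.04; adjusted p = 0.0256), and Tle2 (-0.67 ± 0.18; adjusted p = 0.029). Tle2 stood at 28.4 FPKM in wild type 5, and without that library its change was -0.50 (adjusted p = 0.000338). The calls of Rbpj, Hes6 and Tle2 each ended with some library left out, and those of Rbpj and Hes6 also when libraries were scaled to the same total FPKM (adjusted p = 0.0814 and 0.0957). With all 9 wild types as controls, which mixes the library sets, the changes of Rbpj and Hes6 turned to -0.002 and 0.22. The Tle2 call also ended there (-0.265, adjusted p = 0.542 by limma), and none of the 53 was called lower.

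In Six2-Cre kidneys 5 of the 53 passed, where 13.8% of all genes tested did. Of these 4 rose and 1 fell, 48 did not pass, and the median log2 change of the 53 was 0.01. Notch3, the receptor of vascular mural cells, averaged 22.6 ± 1.52 FPKM in Six2-Cre kidneys and 17.3 ± 0.578 FPKM in wild types (0.37 ± 0.06; adjusted p = 0.0162). Maml2, a Mastermind coactivator gene, averaged 9.998 ± 1.08 FPKM in Six2-Cre kidneys and 6.46 ± 0.598 FPKM in wild types (0.56 ± 0.10; adjusted p = 0.0195). Tle3 (0.18 ± 0.04; adjusted p = 0.0349) and Eogt, which encodes a glycosyltransferase acting on Notch (0.39 ± 0.10; adjusted p = 0.0495), rose as well. Tle4 fell to 15.0 ± 0.840 FPKM, against 20.4 ± 0.772 FPKM in wild types (-0.42 ± 0.06; adjusted p = 0.00931). The Tle4 call held with each library left out, while those of Tle3 and Eogt ended with any of the 6 left out, that of Maml2 with any of 3 and that of Notch3 with either of 2. Tle3 was thus the one listed Notch pathway gene besides Hey2 called higher in both mutants. With all 9 wild types as controls, the Six2-Cre calls of Tle4 (-0.22, adjusted p = 0.0761 by limma) and Notch3 (0.17, adjusted p = 0.253) ended. None of the tested genes for receptor proteolysis, such as Adam10 and Adam17, passed in either mutant. Genes on either strand overlap Tle1, Tle2, Numbl, Dll4, Rbpj, Notch3, Maml2 and Eogt in the annotation.

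**Figure D3:**
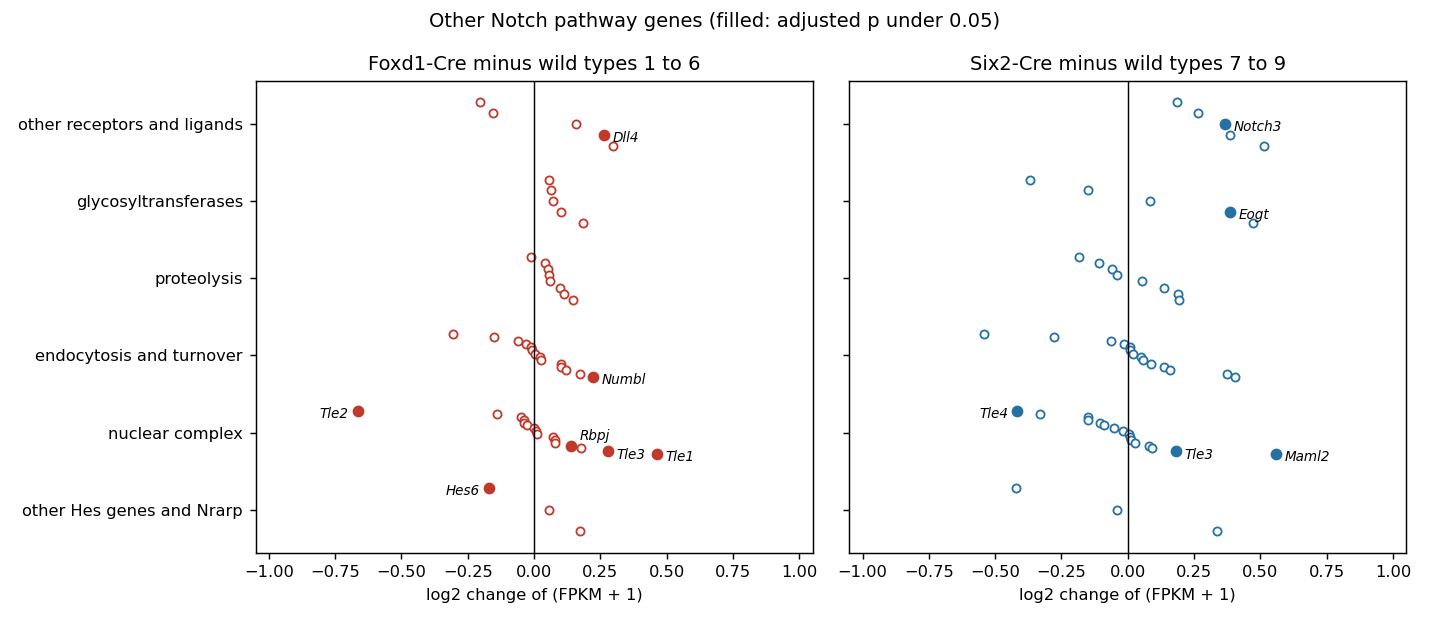
Log2 change of FPKM + 1, mutant minus wild type, of other tested genes of the pathway, by list (rows), in Foxd1-Cre kidneys (left) and Six2-Cre kidneys (right); each point is a gene, and filled, named points passed the test. Most of the genes shown lie near 0, and Tle3 is called higher in both panels.

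Markers of the kidney's cell types moved beside these genes. Of all genes tested, 7.93% were called higher and 5.84% lower in Six2-Cre kidneys. In Foxd1-Cre kidneys these shares were 8.45% and 4.82%. In Six2-Cre kidneys 17 of 18 endothelial markers rose and none fell, and their summed level was 443 to 457 FPKM, against 277 to 291 FPKM in wild types 7 to 9. Of the mural markers 8 of 10 rose and 1 (Des) fell, with sums of 185 to 207 FPKM in Six2-Cre kidneys and 101 to 111 FPKM in wild types. The ratio of mean sums was 1.59 for endothelial and 1.82 for mural markers, where that of Hey2 was 3.27, that of Jag1 1.35, that of Heyl 1.1 and that of Hey1 1.08. The pericyte marker Pdgfrb had a mean of 48.5 FPKM in Six2-Cre kidneys and 19.0 FPKM in wild types (adjusted p = 0.000129). Of the nephron progenitor markers 8 of 12 fell and none rose, with sums of 217 to 226 FPKM in Six2-Cre kidneys and 411 to 472 FPKM in wild types. Of the ureteric bud markers 8 of 12 fell and none rose, with sums of 217 to 226 FPKM, against 296 to 318 FPKM in wild types. Among committed nephron markers 4 rose and 6 fell of 14 (236 to 257 FPKM in Six2-Cre kidneys and 283 to 326 FPKM in wild types). Among stromal markers 4 rose and 1 fell of 12 (942 to 1016 FPKM in Six2-Cre kidneys and 827 to 863 FPKM in wild types). Of the neural markers 7 of 11 rose and none fell. Their sums were 48.7 to 60.8 FPKM in Six2-Cre kidneys and 24.2 to 33.3 FPKM in wild types. The ratio of their mean sums, 1.79, lay between those of endothelial and mural markers.

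In Foxd1-Cre kidneys, where Hes1 and Dll1 fell, 6 of 12 stromal markers fell and 1 rose, with sums of 553 to 682 FPKM, against 702 to 907 FPKM in wild types 1 to 6. Of the nephron progenitor markers 6 of 12 fell and 1 rose, with sums of 376 to 422 FPKM in Foxd1-Cre kidneys and 462 to 574 FPKM in wild types. Of the committed nephron markers, whose cells are known to express Dll1 and Jag1, 5 of 14 fell and 3 rose, and the sums overlapped (254 to 287 FPKM in Foxd1-Cre kidneys and 254 to 347 FPKM in wild types). The ratio of mean sums was 0.776 for stroma, 0.80 for nephron progenitors and 0.937 for committed nephron, where that of Hes1 was 0.761 and that of Dll1 0.569. Where Hey2 rose, 4 of 18 endothelial and 4 of 10 mural markers rose and none fell, with overlapping sums (415 to 516 FPKM in Foxd1-Cre kidneys and 400 to 496 FPKM in wild types for endothelial markers, 124 to 190 FPKM in Foxd1-Cre kidneys and 91.2 to 156 FPKM in wild types for mural markers). Of the neural markers 3 of 11 rose and 1 fell, with sums of 43.0 to 59.1 FPKM in Foxd1-Cre kidneys and 29.3 to 33.9 FPKM in wild types. Tubb3, a neuronal tubulin gene, averaged 22.4 FPKM in Foxd1-Cre kidneys and 1.93 FPKM in wild types, a difference no smaller than that between the mean sums, while the neuronal gene Stmn2 fell to 4.83 FPKM, against 10.2 FPKM in wild types. Ratios of mean sums in Foxd1-Cre kidneys were 1.11 for endothelial, 1.33 for mural and 1.59 for neural markers, where that of Hey2 was 1.64. Red cell markers had ratios of 0.715 in Foxd1-Cre and 0.524 in Six2-Cre kidneys, and macrophage markers 1.17 in Foxd1-Cre and 1.5 in Six2-Cre kidneys. No listed marker that was tested stood at 0 in all libraries of a group. The part of these marker changes in the results for the 10 genes was not tested.

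**Figure D4:**
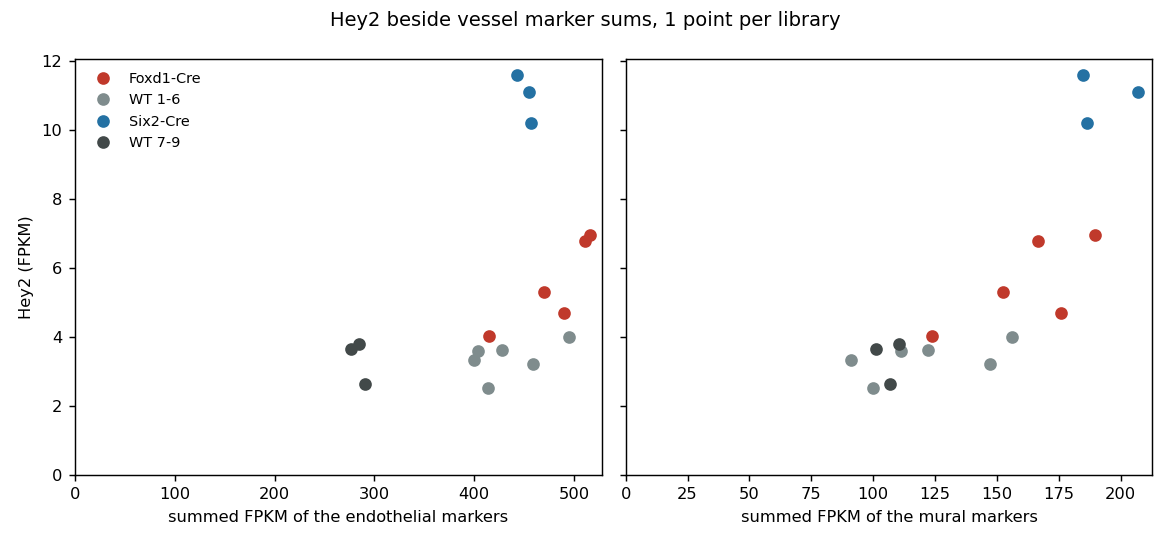
Hey2 level in FPKM against the summed FPKM of endothelial markers and of mural markers, 1 point per library, by group. Six2-Cre libraries lie above their wild types on every axis, and Foxd1-Cre libraries lie above theirs in Hey2 while their marker sums overlap those of the wild types.

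By level, Hes1 led in all groups and Hes5 was last, and the order between them differed between the groups. In Foxd1-Cre kidneys the order of mean FPKM was Hes1, Hey1, Notch2, Notch1, Heyl, Jag1, Lfng, Hey2, Dll1 and Hes5, and only the neighbours Notch1 and Heyl, Heyl and Jag1, and Lfng and Hey2 overlapped in range. In wild types 1 to 6 Dll1 stood above Hey2, at 3.68 ± 0.552 and 3.38 ± 0.508 FPKM (SD, n = 6), though their ranges overlapped. In Six2-Cre kidneys the order was Hes1, Notch2, Jag1, Hey1, Notch1, Heyl, Hey2, Lfng, Dll1 and Hes5, with no overlap between neighbours. In wild types 7 to 9 Jag1 stood below Hey1 and Hey2 below Lfng, the ranges of Hey2 and Lfng overlapping. Among the wild types themselves, Notch2 averaged 13.7 ± 2.37 FPKM in numbers 1 to 6 and 30.1 ± 0.692 FPKM in numbers 7 to 9, and Jag1 11.2 ± 1.98 FPKM in numbers 1 to 6 and 18.4 ± 1.67 FPKM in numbers 7 to 9. Other genes of the pathway had gaps in both directions. Crebbp had 10.34 to 14.37 FPKM in numbers 1 to 6 and 53.57 to 60.9 FPKM in numbers 7 to 9. Aph1a had 70.23 to 76.5 FPKM in numbers 1 to 6 and 24.23 to 32.52 FPKM in numbers 7 to 9. These sets differ in depth, and whether they differ in preparation is not given in the sources used here. The part of depth or of any other set difference in these gaps was not tested. Within wild types 1 to 6, Hes1 varied least among the 10 genes, with a coefficient of variation of 2.64%, while Notch1 had 30.2% and the low Hes5 78.4%.

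For each of the 10, the genes whose log2 levels followed it most closely over the 11 libraries of the Foxd1-Cre comparison were looked up among 11652 genes, as a description in which all points share libraries and groups. Jag1 and Heyl were each among the other's closest genes, with a Pearson r of 0.923 over those 11 libraries and 0.869 over the 6 of the Six2-Cre comparison. Lrig1 was the closest to both (0.935 with Jag1 and 0.952 with Heyl), but over the 6 libraries its r was -0.85 and -0.52. For Hes1 the closest were Mdfic (0.987), Ppif (0.986) and Hic1 (0.983), with 0.309, 0.778 and -0.33 over the 6 libraries. For Dll1 they included Car4 (0.972) and Ppp2r3c (0.962). For Hey2 they were Pttg1ip (0.98), Rab5b (0.973) and Samd4 (0.967), of which Samd4 had the highest r over the 6 libraries, 0.894.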

How the data were processed

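The authors deposited 1 table of FPKM values for 17 bulk RNA-seq libraries of E12.5 mouse kidneys. Per the submitters' processing notes, bcl2fastq 2.17.1.14 and Salmon were used with GRCm38 (mm10). How transcripts were summed to genes, any scaling between libraries and strandedness are not given in the sources used here. Per the labels' protocols, RNA was extracted with an RNeasy Micro kit. Depth was not given and was inferred from the smallest step between FPKM values of 1928 genes, which covers counting error only.

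Of 24432 IDs, 24189 had a symbol in GENCODE for GRCm38. A gene was kept (14014 in all) where 3 or more of the 17 libraries reached 1 FPKM, less those at 0 throughout a comparison. limma 3.58.1 in R 4.3.3 was fitted on log2(FPKM + 1) with a variance trend, two-sided, with Benjamini-Hochberg adjustment over all genes tested, separately for 5 Foxd1-Cre against 6 wild types and for 3 Six2-Cre against 3. This scale understates changes of low genes. The difference of effects adds both squared errors, with Satterthwaite degrees of freedom. The authors' FPKM values are not counts, so no count model was used. The script was tested on simulated data. The labels do not say that libraries came from separate animals, so p-values measure the spread between these libraries.

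The 10 genes, the gene lists and the tests were chosen with earlier results of these data known. Named were all 10 genes, up to 12 called pathway genes per comparison of at least 2 FPKM by smallest p, up to 2 markers per list by level, Axin2 and Notum, and the 3 genes most correlated with each of the 10 (mean of at least 2 FPKM). Some genes that this rule names are not reported here. Alternatives were other pseudocounts, filters and scalings, a robust or untrended variance, all 9 wild types as controls, a replicate block and each library left out. Promoter windows are those of RefSeq for GRCm38.p6.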

Additional observations from a re-analysis of the deposited data

Results flagged for a closer look

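The changes in the mutants differed from each other for 4 of the 10 genes, by the limma-based test of the Foxd1-Cre change minus the Six2-Cre change, adjusted over all genes. On the log2 scale the difference was -0.68 for Jag1, with a change of -0.26 in Foxd1-Cre kidneys and 0.42 in Six2-Cre kidneys. It was -0.32 for Hes1, which was lower in 5 of 5 Foxd1-Cre libraries than in any of its wild types and overlapped them in Six2-Cre kidneys. Hey1 differed by -0.34, with changes of -0.24 in Foxd1-Cre and 0.11 in Six2-Cre kidneys, neither of which passed alone. Hey2 differed by -0.90 and rose in both. No single library was flagged as outlying for any of the 10 genes in the 20 groups of 5 or 6 libraries checked. That check looks at 1 library at a time and cannot flag a pair such as wild types 1 and 6, which were both high in Notch1 (17.9 and 18.0 FPKM).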

How the results depend on the processing

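Of 607 values of the 10 genes under alternatives, 580 kept their direction and side of the threshold, 23 passed where the reported value did not, 2 no longer passed (Jag1 in Six2-Cre kidneys, without replicate 2 or 3) and 2 turned. Both of these were Notch2 with all 9 wild types as controls (-0.21 in Foxd1-Cre and 0.59 in Six2-Cre kidneys), where Rbpj (-0.002) and Hes6 (0.22) turned too. That setting mixes the library sets. It called 1234 of 14014 genes in Foxd1-Cre kidneys and 6444 of 14014 in Six2-Cre kidneys. The Six2-Cre calls held 6 of the 10 genes and 22 of the 53 other pathway genes. Dll1 (-0.36), Lfng (-0.71) and Hes1 (-0.14) passed there. So did Hes5 (-0.755), which passed the filter on low values through wild types alone. With each library left out in turn, calls over all genes ran from 1423 to 1922 in Foxd1-Cre kidneys, from 907 to 1467 in Six2-Cre kidneys and from 1036 to 1527 for the difference. Among the 10 genes they ran from 3 to 5 (5 without wild type 2), from 1 to 4 (4 without wild type 8) and from 4 to 6, and among the other pathway genes from 4 to 10 in Foxd1-Cre and from 1 to 4 in Six2-Cre kidneys. The 4 without wild type 8 included Hes5 (-1.23, adjusted p = 0.014 by limma). Without wild type 8 Hes5 also passed in the test of the difference (0.84, adjusted p = 0.0402), beside Lfng. Of the 23 values that newly passed, 5 were of Hes5, whose change is given as a description. Scaling to the same upper quartile called 1053 genes higher and 962 lower in Foxd1-Cre kidneys, and to the same total FPKM 1231 and 408. Hey1 in Foxd1-Cre kidneys passed under the upper quartile, a robust variance, a pseudocount of 0.1 or a filter within the comparison (adjusted p from 0.0225 to 0.0498 by limma). No pairing of the Foxd1-Cre and wild-type libraries by replicate numbers 1 to 5 was seen. Deviations of same-numbered libraries correlated by 0.022 to 0.099, and no library correlated best with its own number. Such low correlations cannot exclude a pairing. With the replicate block 1425 genes were called, with 3 of the 10 genes and 4 other pathway genes, and calls that ended included those of Dll4, Rbpj and Hes6. Six2-Cre libraries and wild types 7 to 9 share no number. At the lower depth of the Six2-Cre comparison, Hes5 rests on fewer than 10 reads per library. The cause of these shifts was not tested.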
